A study of Rattus norvegicus with 2 samples.

Results

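The genes described here encode the insulin and insulin-like growth factor (IGF) system in rat OPCs (oligodendrocyte precursor cells), which can become myelin-forming oligodendrocytes. They were chosen by name: the rows whose symbol is Igf1, Igf2, Igf1r, Igf2r, Insr, Irs1, Irs2, Igfbp2, Igfbp3 or Igfbp5. All 10 were found among the 17455 genes of the table, and 9 had a mean of at least 1 TPM (transcripts per 1000000, a level per transcript length). Igf1 did not. The series compared wild-type OPCs transfected with vector (the library labelled control, called vector here) with wild-type OPCs transfected with Slit1, by RNA sequencing of total RNA, with 1 library in each group. Slit1 encodes a secreted ligand of Robo receptors. Both groups went through transfection with a Lonza kit. The rat strain and age, the culture medium (which can itself hold insulin) and the time of harvest are not given in the texts used here.

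IGF1, IGF2 and insulin act through the related receptor tyrosine kinases IGF1R and INSR. These receptors phosphorylate the docking proteins IRS1 and IRS2, which recruit PI3-kinase and so activate Akt. IGF2R does not signal in this way: it takes up IGF2 for degradation and carries lysosomal enzymes. The IGF binding proteins hold the ligands outside the cell and limit or prolong their action. IGF signalling is known for supporting the survival of OPCs and the formation of myelin.

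Depth was alike, with 18817462 estimated counts for vector and 18998770 for Slit1. Slit1 itself measured 1.70 TPM in vector and 229.7 TPM in the Slit1 library, so the labels matched the overexpressed gene. With 1 library per group no test over samples was possible, no p-value is given and no difference has a replicate check. Each TPM ratio is given with its exact 95% counting interval, which describes the error of counting reads and not the spread between cultures. A gene was called higher or lower when the libraries lay at least 1.5-fold apart on the log2(TPM + 1) scale, which understates the difference of low genes. Of the 13175 genes that averaged at least 1 TPM, 490 (3.72%) were called higher and 637 (4.83%) lower in the Slit1 library. The share of higher genes among those called was 43.5% in TPM, and 52.5% to 54.6% under the other scalings. Markers of the labelled cell type were present: Olig1 measured 730.1 and 686 TPM, and Pdgfra, the receptor that maintains OPCs, 40.2 and 41.4 TPM, in vector and Slit1. Of the 7 listed OPC markers, 1 was called higher and none lower. The higher one was Sox10, a factor of the whole oligodendrocyte lineage (71.4 and 218 TPM), while Ptprz1, a receptor phosphatase, measured 914 and 688 TPM. Astrocyte genes were abundant as well. The 8 listed astrocyte markers summed to 5952 TPM with vector and 7128 TPM with Slit1. Most of each sum was Gfap, at 4694 and 6130 TPM, while Gjb6 had 1 count in each library. Of the 7 with a mean of at least 1 TPM, 2 were called lower and none higher.

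Igf2 was the only 1 of the 9 genes averaging at least 1 TPM that stood higher in the Slit1 library, and the other 8 stood lower. This division of signs was the same in TPM, in FPKM, in counts per 1000000 (CPM) and under each other scaling and pseudocount. Of all 13175 genes tested, 56.0% stood lower in TPM and 51.1% in CPM. At the limit of 1.5-fold, 1 gene (Igf2) was called higher, beside the 3.72% of all genes, and 1 (Igfbp5) lower, beside 4.83%. Igf1r, Igfbp3 and Igfbp2 lay just inside the limit, with log2 differences of -0.58, -0.57 and -0.57. None of the 9 lay 2-fold apart, which 1.89% of all genes did. Their median log2 difference was -0.51, against -0.05 over all genes tested.

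**Figure D1:**
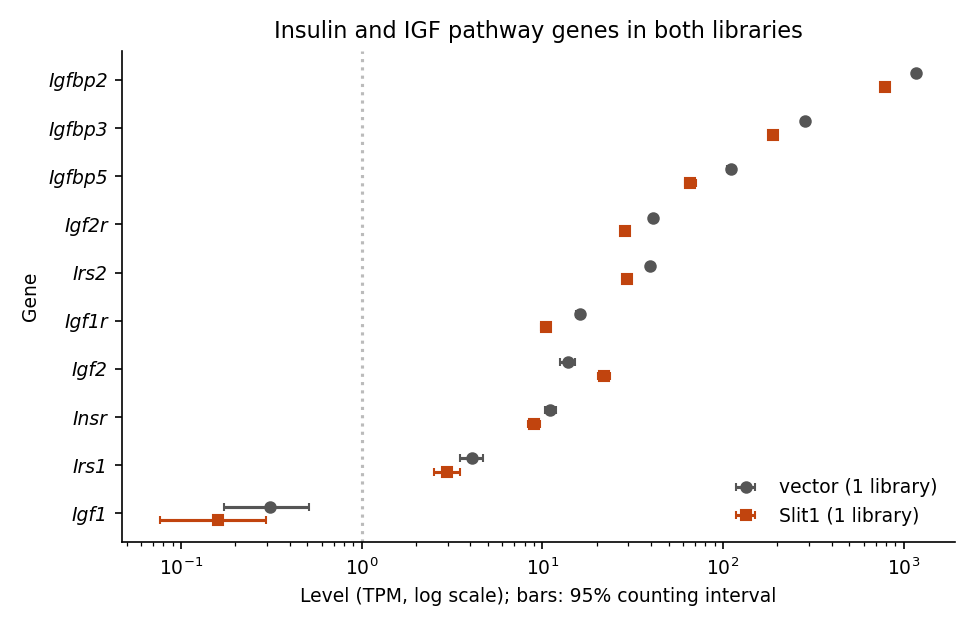
Level of each of the 10 genes in the vector library (circles) and the Slit1 library (squares), in TPM on a log axis, with 95% counting intervals and a dotted line at 1 TPM. Igfbp2 was the highest in both libraries at 1164 and 786 TPM, Igf1 lay under 1 TPM in both, and Igf2 is the gene whose square lies to the right of its circle.

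The IGF ligands differed from each other in level. Igf2 (NCBI gene 24483), the IGF that is abundant in the fetus, measured 13.8 TPM with vector (426 estimated counts) and 21.9 TPM with Slit1 (693 counts). The Slit1 library was thus 1.58-fold higher (counting interval 1.40 to 1.79), a log2 difference of 0.63 that exceeded 96.8% of all genes tested. Igf1 (24482), the IGF induced by growth hormone in liver and made locally in brain, was scarce in both libraries, at 0.31 TPM (14.99 counts) in vector and 0.16 TPM (10 counts) in Slit1. With so few counts the ratio of 0.516 had an interval of 0.207 to 1.23, and no difference was detectable at this depth. Microglia are a known source of IGF1 in brain. Of 10 listed microglia markers, 6 were in the table. They summed to 3.02 TPM with vector and 5.19 TPM with Slit1. The only one that averaged at least 1 TPM, Cd68, was called higher, at 1.91 and 3.77 TPM (19 and 39 counts, interval of the ratio 1.11 to 3.62). The others were near 0: Tmem119 had 8 and 13 counts, P2ry12 6 and 4, Aif1 1 and 3, Csf1r 3 and 1, and Itgam 0 and 1. Igf2 is also made by fibroblasts and meningeal cells. Their listed markers summed to 23.5 TPM with vector and 22.4 TPM with Slit1, with Dcn at 0 and 1 counts and Col1a2 at 11.7 and 9.94 TPM. A row named Ins2, a rodent insulin gene that neighbours Igf2, measured 1.07 and 0.80 TPM, and its length in the table was unlike that of an insulin transcript.

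None of the genes for proteins that bind Igf2 messenger RNA was called higher. Igf2bp2 measured 61.9 TPM with vector and 61.2 TPM with Slit1 (ratio 0.988, interval 0.927 to 1.05). Igf2bp3 measured 21.9 and 21.98 TPM (ratio 1.01, interval 0.908 to 1.11). The interval of each ratio held 1. Igf2bp1 was low, with 28 counts in vector and 11 in Slit1, and was called lower (2.68-fold, interval 1.29 to 5.96). Hmga2, a chromatin protein listed with them because it is known to regulate Igf2bp2, was called lower as well, at 22.3 and 14.4 TPM (1.54-fold, interval 1.35 to 1.77), but lay inside the limit under every other scaling.

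All 3 receptors stood lower in the Slit1 library, and none passed the limit of 1.5-fold. Igf1r (25718), the signalling receptor for both IGFs, measured 16.2 TPM with vector (1704 counts) and 10.5 TPM with Slit1 (1147 counts). As a TPM ratio it was 1.54-fold lower (interval 1.43 to 1.67). The pseudocount put its difference in log2(TPM + 1) just inside the limit, and with a pseudocount of 0.1 it was called lower. Igf1r overlaps Pgpep1l, and how reads were divided between them was not tested: the summed counts of the pair had a ratio of 0.829 in CPM, against 0.667 for Igf1r alone. Igf2r (25151), the clearance receptor, measured 41.3 and 28.7 TPM, 1.44-fold lower (interval 1.36 to 1.52). Insr (24954), the insulin receptor, measured 11.1 and 8.99 TPM, 1.23-fold lower (interval 1.12 to 1.37). With Igf1r as deposited, the receptors were not lower by one factor. The ratio of Igf1r to Insr within a library went from 1.46 in vector to 1.17 in Slit1. That of Igf2r to Igf1r was 2.55 and 2.74, a difference within counting error. Both comparisons rest on how reads were divided between Igf1r and Pgpep1l. In CPM the ratio was 0.835 for Insr and 0.718 for Igf2r, beside 0.829 for the pair.

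A ratio of genes within a library does not depend on how the libraries are scaled to each other. Igf2 stood at 0.855 of the level of Igf1r in vector and at 2.09 times that level in Slit1, a 2.44-fold difference (counting interval 2.12 to 2.82). With Igf1r as deposited, the order of these genes was therefore reversed between the libraries. This comparison too rests on how reads were divided between Igf1r and Pgpep1l, which was not tested. In CPM the ratio of Slit1 over vector was 1.61 for Igf2, 0.667 for Igf1r and 0.829 for the pair. The level of Igf2r over that of Igf2 was 2.98 in vector and 1.31 in Slit1, 2.27-fold lower (interval 1.99 to 2.59).

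The insulin receptor substrates Irs1 and Irs2 stood lower by similar factors. Irs2 (29376) measured 39.7 TPM with vector (2144 counts) and 29.6 TPM with Slit1 (1667 counts), 1.34-fold lower (interval 1.26 to 1.43). Irs1 (25467), which was the less abundant substrate in both libraries, measured 4.06 and 2.97 TPM, 1.37-fold lower (interval 1.09 to 1.71). Neither passed the limit of 1.5-fold. Irs2 stood at 9.77 times the level of Irs1 in vector and 9.97 times in Slit1, so the balance of the substrates differed by less than counting error (ratio of ratios 1.02, interval 0.813 to 1.28). Irs3, a substrate that rodents have, was low at 2.83 and 2.95 TPM, with an interval of its ratio from 0.687 to 1.58.

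**Figure D2:**
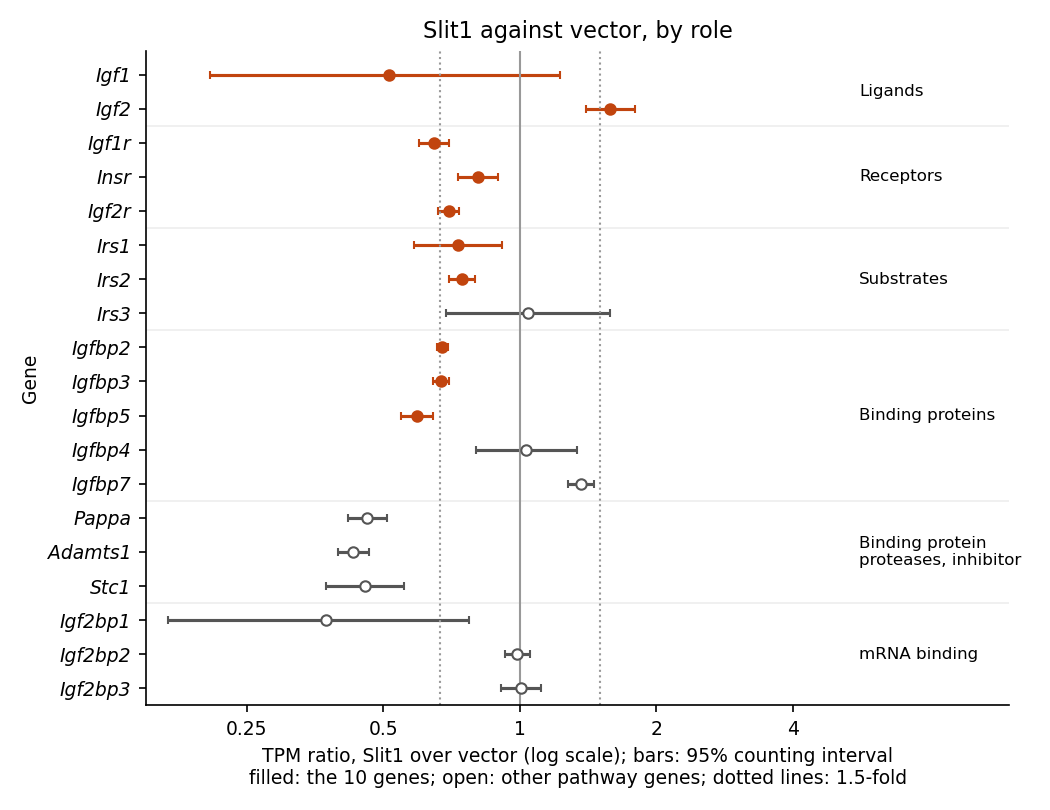
TPM ratio, Slit1 over vector, on a log axis with 95% counting intervals, for the 10 genes (filled) and their relatives (open), grouped by role. The dotted lines mark 1.5-fold in either direction. Igf2 lies at 1.58, and the receptors, Irs1 and Irs2 between 0.648 and 0.810. Irs3, an open point, lies at 1.04. Igfbp2, Igfbp3 and Igfbp5 lie at 0.675, 0.671 and 0.594.

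The binding proteins were the most abundant of the 10 genes, and all 3 stood lower in the Slit1 library. Igfbp2 (25662), a binding protein that is prominent in developing brain, measured 1164 TPM with vector (12540 counts) and 786 TPM with Slit1 (8809 counts), 1.48-fold lower (interval 1.44 to 1.52). It ranked 78 of all 17455 genes by level in vector and 161 in Slit1. Of 272 genes that averaged at least 500 TPM, 7 were called higher and 6 (2.21%) lower. The lower ones were Pla2g7, Serpine2, Ptn, Nqo1, Glul and Ccng1, and the same 6 were the ones with a log2 difference below that of Igfbp2. The limit of 500 TPM and these names were chosen after the values were seen.

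Igfbp3 (24484), the main carrier of IGFs in blood, measured 283 TPM with vector (5799 counts) and 190.0 TPM with Slit1 (4047 counts), 1.49-fold lower (interval 1.43 to 1.55). Igfbp5 (25285), a binding protein that attaches to extracellular matrix, measured 111 TPM with vector (1519 counts) and 66.1 TPM with Slit1 (939 counts). It was 1.68-fold lower (interval 1.55 to 1.83), with a log2 difference of -0.74, and was called lower under every scaling and pseudocount. Igfbp2 and Igfbp3 differed by nearly one factor: the level of Igfbp2 over that of Igfbp3 was 4.11 in vector and 4.13 in Slit1, a difference within counting error. Over that of Igfbp5 it was 10.5 and 11.9, a 1.14-fold difference (interval 1.04 to 1.24).

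Together Igfbp2, Igfbp3 and Igfbp5 summed to 1559 TPM with vector and 1042 TPM with Slit1, 1.496-fold lower. Set against the ligand, Igfbp2 stood at 84.1 times the level of Igf2 in vector and 35.9 times in Slit1, 2.35-fold lower (interval 2.07 to 2.65). The same comparison was 2.36-fold lower for Igfbp3 and 2.67-fold lower for Igfbp5.

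Igfbp7 and Igfbp4 did not stand lower. Igfbp7, which binds IGFs weakly, measured 167 TPM with vector and 228 TPM with Slit1, 1.36-fold higher (interval 1.28 to 1.46), which is inside the limit. Igfbp4 measured 6.61 and 6.83 TPM, with an interval of its ratio from 0.800 to 1.33. Igfbp6 had 7 and 3 counts and Igfals, the subunit that stabilises IGF complexes in blood, 5 and 7.36 counts. Of the 5 binding protein genes that averaged at least 1 TPM, 3 thus stood lower and 2 higher.

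Astrocytes are known to make binding proteins, Igfbp2 among them, and astrocyte markers differed between the libraries in both directions. Slc1a2, a glutamate transporter, measured 215 TPM with vector and 94.1 TPM with Slit1, and Gja1, a gap junction protein, 506 and 296 TPM. These 2 of the 7 astrocyte markers with a mean of at least 1 TPM were called lower and none higher, while Gfap measured 1.31 times and Aqp4 1.19 times their level in vector. All 9 listed markers of differentiating oligodendrocytes were called higher, and they summed to 1277 TPM with vector and 4911 TPM with Slit1. In a bulk library, fewer cells of a type and less RNA per cell cannot be told apart. The part of these cell types in the values of the 10 genes was not tested.

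**Figure D3:**
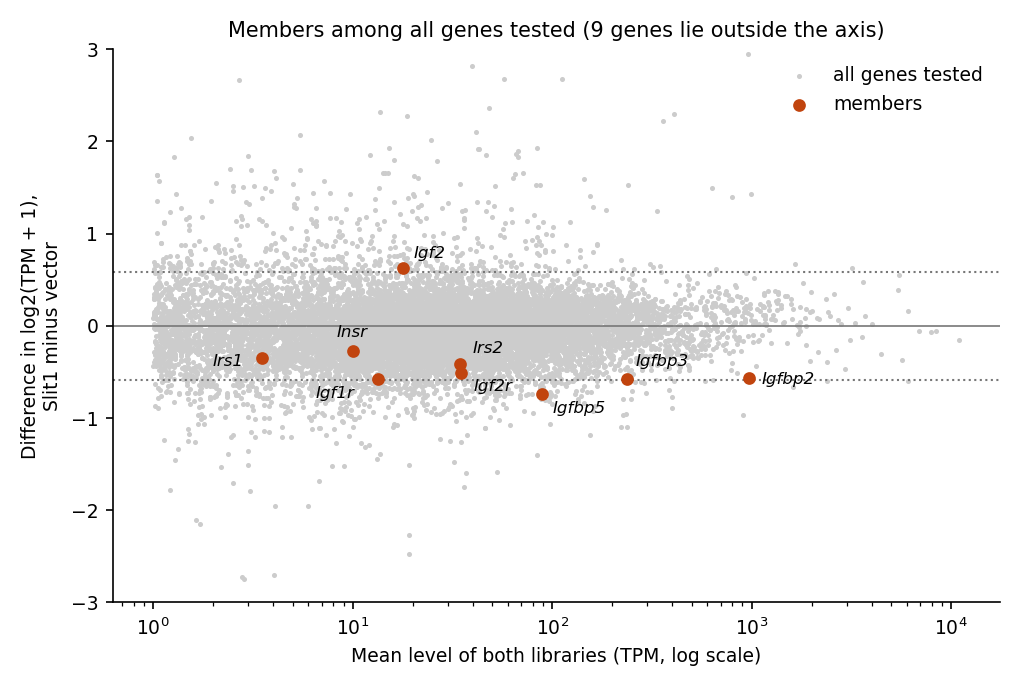
Difference in log2(TPM + 1), Slit1 minus vector, against the mean level of both libraries (TPM, log axis) for all 13175 genes tested (grey) and the 9 of the 10 genes that averaged at least 1 TPM (filled). The dotted lines mark 1.5-fold, and 9 genes lie outside the axis. Igf2 lies above the upper line, Igfbp5 below the lower one, and Igf1r, Igfbp3 and Igfbp2 almost on it.

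Since the 3 binding protein genes stood lower together, the DNA before their starts is shown. Each sequence is the 250 bases before the RefSeq start of the gene, 5′ to 3′ on the strand of the gene, in build GRCr8. Igfbp2 lies at chr9:81864561-81864810 on the plus strand, Igfbp3 at chr14:86277945-86278194 on the minus strand and Igfbp5 at chr9:81914188-81914437 on the minus strand. Capitals mark an E-box (CACGTG), bound by basic helix-loop-helix factors, and a GC box (GGGCGG), bound by Sp factors.
Igfbp2: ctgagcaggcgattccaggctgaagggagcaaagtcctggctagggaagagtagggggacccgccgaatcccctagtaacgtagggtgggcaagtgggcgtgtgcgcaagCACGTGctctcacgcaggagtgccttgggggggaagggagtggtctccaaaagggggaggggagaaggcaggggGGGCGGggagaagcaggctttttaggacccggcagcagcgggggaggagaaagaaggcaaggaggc
Igfbp3: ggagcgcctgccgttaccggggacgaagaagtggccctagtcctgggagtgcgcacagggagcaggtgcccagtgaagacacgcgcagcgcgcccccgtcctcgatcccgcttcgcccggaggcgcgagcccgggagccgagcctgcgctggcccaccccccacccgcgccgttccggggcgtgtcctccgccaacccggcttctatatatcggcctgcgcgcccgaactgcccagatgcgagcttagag
Igfbp5: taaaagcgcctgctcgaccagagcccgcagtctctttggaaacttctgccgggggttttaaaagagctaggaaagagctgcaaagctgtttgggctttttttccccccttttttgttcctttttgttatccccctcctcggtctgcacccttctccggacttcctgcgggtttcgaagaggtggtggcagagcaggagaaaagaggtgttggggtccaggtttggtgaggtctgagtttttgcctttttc

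Igfbp2 held 1 E-box, 140 bases before the start, and 1 GC box, 66 bases before it. Igfbp3 and Igfbp5 held neither in these exact letters. The search of both strands also covered the TATA box (TATAAA), the AP-1 site (TGANTCA) and the FoxO site (TGTTTAC). No motif in these spellings was shared by the 3 genes. Other spellings of the same sites, such as further forms of the E-box or TATA box, were not searched. Over all 33469 promoters of the same length in the table, 5.59% held an E-box and 30.5% a GC box. The sequences also differed in composition. The share of G and C was 64% in Igfbp2, 71.6% in Igfbp3 and 51.6% in Igfbp5, against a median of 51.2%.

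The promoter table held 9 of the 10 genes, all but Irs2, and 10 promoters, since Igf2 had 2. A GC box was found in 5 of them and an E-box in 3 (Igf1r, Igf2r and Igfbp2). The TATA and AP-1 letters were found in none, against 12.9% and 6.34% of all promoters. The FoxO letters were found in 1, that of Insr, against 3.21% of all promoters. FoxO factors are switched off by insulin signalling and are known to induce Insr, so this match is shown, with the 7 letters in capitals. The 27 bases shown lie at chr12:6128887-6128913 on the minus strand of GRCr8, and the match begins 100 bases before the start.
Insr: cgggccgcgtTGTTTACtggccggagt

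A match of letters is a description and not a binding site. Insr itself stood 1.23-fold lower in the Slit1 library, and Irs2, which FoxO factors are also known to induce, 1.34-fold lower. Neither was called, and the part of FoxO factors in these values was not tested.

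The wider pathway was read from 9 lists of genes at each step from ligand to FoxO targets. Of their 102 genes other than the 10, 93 were in the table and 83 had a mean of at least 1 TPM. Of these 83, 1 was called higher and 13 (15.7%) lower, beside 3.72% and 4.83% of all genes. In CPM 10 of them were called lower, and in FPKM 8. The lists were chosen with earlier results of these data known, so these shares describe the lists and test nothing. Their median log2 difference was -0.16, against -0.05 over all genes. At the receptor, 1 of 13 adaptor genes was called higher and none lower. The higher one was Sh2b2, an adaptor of the insulin receptor (3.75 and 6.47 TPM, 1.73-fold, interval 1.34 to 2.24). Shc1, which links receptors to the MAP kinase branch, measured 87.2 and 65.9 TPM, and Grb2, its partner, 145.9 and 141.8 TPM.

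**Figure D4:**
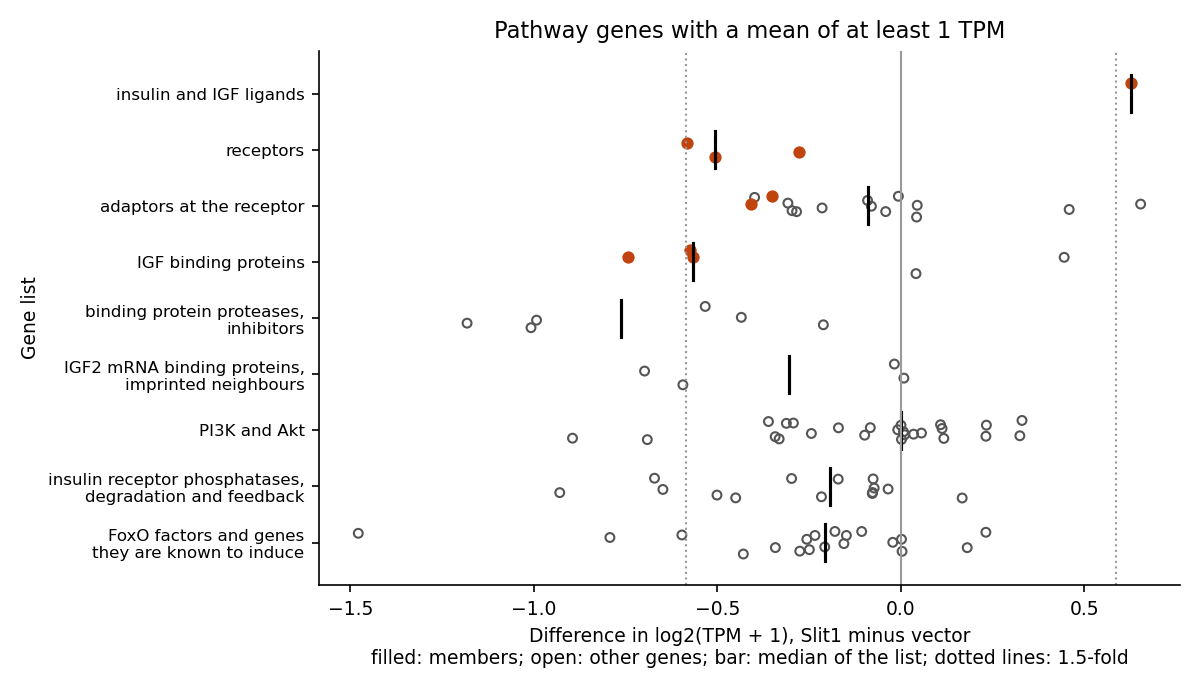
Difference in log2(TPM + 1), Slit1 minus vector, for each pathway gene with a mean of at least 1 TPM, by list. Filled points are the 10 genes described here, open points other genes, bars list medians that include both kinds, and dotted lines 1.5-fold. Every receptor and every binding protein protease or inhibitor lies left of 0, whereas genes of PI3-kinase and Akt lie on both sides.

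Next came genes that cut binding proteins or restrain those proteases. Of 6 measured, 3 were called lower and none higher, and the other 3 also stood below 0. Among those 3, Stc2 rested on 20 and 13.37 counts, and the interval of its ratio (0.294 to 1.36) held 1. Pappa, the protease that frees IGF from IGFBP4 and IGFBP5 (listed in the table as Pappa1), measured 13.9 TPM with vector and 6.41 TPM with Slit1, 2.17-fold lower (interval 1.96 to 2.40). Stc1, a stanniocalcin that inhibits it, measured 10.8 and 4.94 TPM, 2.19-fold lower (interval 1.80 to 2.68). Adamts1, a protease of extracellular matrix, measured 52.2 and 22.4 TPM, 2.33-fold lower (interval 2.15 to 2.52). Htra1, a secreted protease that can cut IGFBP5, measured 193 and 167 TPM, and Adam12, which can cut IGFBP3 and IGFBP5, 18.8 and 12.7 TPM (1.48-fold lower, inside the limit).

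Genes of PI3-kinase and Akt were spread around 0. Among 25 measured, 2 were called lower and none higher, and the median log2 difference was 0.00. Phlpp2, a phosphatase of Akt, measured 8.75 and 5.04 TPM, 1.74-fold lower (interval 1.44 to 2.09). Akt1, a kinase gene, measured 187 and 203 TPM, and Akt2 measured 81.9 and 83.9 TPM; neither was called. The catalytic subunit Pik3ca measured 30.3 and 24.6 TPM and the regulatory subunit Pik3r1 46.6 TPM in both.

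Of 14 genes of receptor phosphatases, degradation and feedback, 3 were called lower and none higher. They were Socs1, a suppressor of cytokine and insulin signalling (6.39 and 2.88 TPM, with 63.0 and 29.6 counts), Trib3, a pseudokinase that binds Akt (4.94 and 2.73 TPM, 59 and 34 counts), and Mdm2, a ubiquitin ligase known to act on IGF1R as well as p53 (178 and 113 TPM, 1.57-fold lower, interval 1.499 to 1.65). Trib3 lay inside the limit in CPM, in FPKM, with edgeR TMM factors and with DESeq2 size factors. Ide, the insulin-degrading enzyme, measured 69.9 and 49.1 TPM, a 1.42-fold difference inside the limit.

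Of 19 FoxO factors and genes that FoxO factors are known to induce, 3 were called lower and none higher. Sesn3, a sestrin, measured 47.8 TPM with vector and 16.5 TPM with Slit1, 2.89-fold lower (interval 2.59 to 3.24). Cited2, a transcriptional coregulator, measured 112 and 64.1 TPM, 1.74-fold lower (interval 1.62 to 1.88). Pdk4, a kinase that slows glucose oxidation, rested on 25 and 13 counts, its interval reached 1, and it lay inside the limit under every other scaling. The factors themselves were not called: Foxo1 measured 23.7 and 19.8 TPM and Foxo3 29.0 and 26.8 TPM.

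The order of the 10 genes by level was similar in both libraries. Igfbp2, Igfbp3 and Igfbp5 came first, and Insr, Irs1 and Igf1 came last. Igf2r and Irs2 could not be ordered within counting error in either library: Igf2r stood at 1.04 times Irs2 with vector (interval 0.984 to 1.10), and Irs2 at 1.03 times Igf2r with Slit1 (interval 0.967 to 1.10). Every other pair of neighbours differed by more than counting error in its library. With Igf1r as deposited, Igf2 stood below Igf1r in vector and above it in Slit1.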

How the data were processed

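RNA was sequenced from 2 libraries, vector and Slit1, 1 in each group, so nothing was averaged. The authors deposited 1 table with FPKM, TPM and estimated counts per gene, per the file headers. The deposited TPM values sum to 1000000 in each library, and the deposited FPKM values to 459452 and 473673. The estimated counts deposited by the authors need not be whole. The submitters' processing notes name the build mRatBN7.2. Not given in the sources used here are aligner, counter, annotation, filters and the use of strand. Reads of overlapping or similar genes may therefore have been divided between them, and antisense reads cannot be told apart. The number of value columns of other samples was 0.

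The main measure was the difference in log2(TPM + 1), over genes averaging at least 1 TPM, called at 1.5-fold. Intervals are exact (Clopper-Pearson, 95%) for the ratio of 2 Poisson counts (estimated counts were rounded first), rescaled to the TPM ratio. For ratios of ratios they are normal approximations on the log scale. They cover counting error only. A count of 0 allows 3 counts, worth 0.137 TPM for vector and 0.132 TPM for Slit1 at a gene of median length. The calculation was run on simulated Poisson counts with planted differences. Such counts hold no spread between cultures, so the run checks the arithmetic only. Alternatives used counts per 1000000 (CPM), FPKM, edgeR 4.0.16 TMM factors, DESeq2 1.42.0 size factors, a median gene at 0, pseudocounts of 0.1 and 5 TPM, floors of 0 and 5 TPM, a limit of 2-fold and a counting interval that leaves out 1. Scripts used Python 3.11.15, scipy 1.17.1 and R 4.3.3.

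The genes, lists and alternatives were chosen with earlier results of these data known. Named genes are all 10, pathway genes called at 1.5-fold, and fixed close relatives; others are named for their role in the pathway or as markers. Of the gene numbers, 17211 (98.6%) matched RefSeq's GRCr8 table, used for symbols and neighbourhood. Promoters are from RefSeq in GRCr8, which is not the build of the table. Ins1, Insrr, Irs4, Igfbp1 and H19 were looked for and not found among the genes of the deposited table, so they have no values here. Some pathway genes that these rules take in are not reported here.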

Additional observations from a re-analysis of the deposited data

How the results depend on the processing

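No paired analysis was possible because each group has 1 library, so no library could be left out either. Over 7 scalings and pseudocounts, each of the 10 genes kept the sign of its difference. Of 70 such values 64 lay within the counting interval of the main one, and 6 did not (5 of them Igfbp2, whose interval is narrow). The log2 difference of Igf2 ranged from 0.51 to 0.68, that of Igf1r from -0.62 to -0.45 and that of Igfbp5 from -0.75 to -0.68. With a pseudocount of 0.1 TPM, 2 of the 9 genes were called lower (Igf1r and Igfbp5), beside 867 of all 13175 genes. With a pseudocount of 5 TPM none of them was called higher. At 2-fold 0 were higher and 0 lower. The pathway genes called lower were 13 in TPM, 8 in FPKM, 7 with a pseudocount of 5 TPM and 3 at 2-fold (Adamts1, Pappa1 and Sesn3), and 0 were called higher in each of those 3 alternatives. In FPKM, Sh2b2, Igf2bp1 and Phlpp2 lay inside the limit, besides Hmga2, Pdk4 and Trib3. Of the 83, 58 stood below 0 in TPM and 50 with edgeR TMM factors (all genes: 56.0% and 49.8%). Over all genes 361 were lower in FPKM. With a pseudocount of 5 TPM 258 were higher and 277 lower, and at 2-fold 164 were higher and 85 lower. Pseudocounts and FPKM, whose values are smaller, shrink differences of low genes by construction. Igf1, Igf2bp1, Pdk4, Socs1, Trib3, Stc2 and Igfbp6 rest on few counts.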

Other observations

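The row named Ins2 had a length unlike that of an insulin transcript. Its 303 estimated counts in vector and 241 in Slit1 were worth 1.07 and 0.80 TPM. The length that follows from counts and FPKM was 32.8 kb in vector, and none of the 11275 genes with at least 100 counts in vector had a longer one. Their median was 2.72 kb. The same calculation gave 3.56 kb for Igf2, 12.2 kb for Igf1r and 1.25 kb for Igfbp2. In the GRCr8 table of RefSeq, Ins2 overlaps LOC108349673, a long noncoding RNA gene that has no row among the deposited values. Whether any counts of the Ins2 row came from insulin messenger RNA was not tested.

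Igf1r overlaps Pgpep1l in the same RefSeq table. Pgpep1l differed in the opposite direction, at 7.36 TPM with vector and 10.9 TPM with Slit1 (1.48-fold higher, interval 1.30 to 1.68). The summed counts of the pair were 2104 and 1762, a ratio of 0.829 in counts per 1000000 (interval 0.778 to 0.884), against 0.667 for Igf1r alone on that scale. How reads were divided between these genes was not tested.

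Igfbp2 and Igfbp5 are neighbours on rat chromosome 9, and the measured genes on either side of the pair did not share their direction by size: Smarcal1 measured 13.6 TPM in both libraries and Tns1 28.7 and 29.2 TPM. Beyond Igfbp3, Tns3, which encodes a tensin, measured 61.4 TPM with vector and 124 TPM with Slit1, 2.02-fold higher (interval 1.94 to 2.10). Measured neighbours were taken 2 on each side of each of the 10 genes, each counted once and without the 10 genes themselves. Of these 36, 3 were called higher (Tns3, Dock10 and Rnf11l2) and 0 lower. The median log2 difference of the 36 was -0.04. These neighbours were chosen after the values were seen.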
